A study of Mus musculus with 11 samples.

Results

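The 10 genes described here belong to the circadian clock: Arntl, Clock, Per1, Per2, Per3, Ciart (listed in the table under its older symbol Gm129), Nr1d1, Nr1d2, Dbp and Tef. They were chosen by name as components of the clock, out of 38406 gene symbols in the table, and all 10 were found and tested. The samples were RNA-seq libraries of back skin from 6 Trex2 KO and 5 WT mice, which the submitters describe as biological replicates. All were C57BL/6 females of 8 to 10 weeks, and all received imiquimod, so the libraries of both genotypes carry the treatment. Imiquimod activates an innate RNA receptor, and repeated dosing of skin with it serves as a mouse model of psoriasis. After shaving, 125 mg of 5% cream was put on the back daily for 4 days, and skin was taken 24 hours after the last application. Trex2 encodes a DNA exonuclease found mainly in keratinocytes. The labels name no tissue-specific driver for the Trex2 deletion and do not say whether the WT mice were littermates. No untreated skin was analysed here. The time of day at which each mouse was killed is not given in the sources used here, and no library was assigned a clock phase.

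The clock runs in nearly every cell as a loop of transcription. ARNTL and CLOCK bind E-boxes and switch on the Per, Cry, Nr1d1, Nr1d2, Ciart and Dbp genes, whose products in turn act on the loop: PER, CRY and CIART proteins hold back ARNTL and CLOCK, and the receptors NR1D1 and NR1D2 repress Arntl. DBP and TEF bind D-boxes and carry the rhythm to other genes, Per genes among them. In mouse tissues Arntl RNA peaks at roughly the opposite time of day to Dbp and Nr1d1 RNA, and Cry1 RNA peaks later than Dbp. In skin, clock genes cycle in keratinocytes, fibroblasts and immune cells. Epidermal proliferation is also known to follow the time of day.

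Elements of the kind through which clock proteins act can be looked for in the promoters of the genes. RefSeq promoter windows (GRCm38.p6, 250 bases before to 50 after a transcription start) were found for 9 of the 10 genes, in 14 windows, and not for Per2. They were searched on both strands for the E-box CACGTG, the D-box TTATGNAA and AGGTCA, a short element shared by many nuclear receptors. The last is called the receptor element below. No flanking bases were required, so a match to it is not particular to NR1D1 and NR1D2. No match found overlapped another. Windows below are written from the 5′ end on the strand of the gene, with matches in capitals. The Ciart window (chr3:95882179-95882478, minus strand) is shown for its 3 E-boxes, that of Per1 (chr11:69098699-69098998, plus strand) for holding 1 match to each of the 3 motifs, that of Per3 (chr4:151044616-151044915, minus strand) for its 2 D-boxes, and that of the second start of Arntl (chr7:113207261-113207560, plus strand) for its receptor element:
Ciart: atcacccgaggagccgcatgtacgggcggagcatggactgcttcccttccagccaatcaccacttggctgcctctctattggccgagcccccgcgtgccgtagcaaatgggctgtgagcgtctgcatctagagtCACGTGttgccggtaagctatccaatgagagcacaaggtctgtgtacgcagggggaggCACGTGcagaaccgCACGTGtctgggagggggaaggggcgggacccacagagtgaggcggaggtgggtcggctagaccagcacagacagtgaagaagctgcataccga
Per1: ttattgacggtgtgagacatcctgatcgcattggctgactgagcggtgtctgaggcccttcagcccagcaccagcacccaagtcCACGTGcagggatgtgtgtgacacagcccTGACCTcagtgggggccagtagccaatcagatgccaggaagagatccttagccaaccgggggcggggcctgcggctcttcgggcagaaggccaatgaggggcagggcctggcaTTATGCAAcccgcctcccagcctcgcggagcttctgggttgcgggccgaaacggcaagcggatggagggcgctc
Per3: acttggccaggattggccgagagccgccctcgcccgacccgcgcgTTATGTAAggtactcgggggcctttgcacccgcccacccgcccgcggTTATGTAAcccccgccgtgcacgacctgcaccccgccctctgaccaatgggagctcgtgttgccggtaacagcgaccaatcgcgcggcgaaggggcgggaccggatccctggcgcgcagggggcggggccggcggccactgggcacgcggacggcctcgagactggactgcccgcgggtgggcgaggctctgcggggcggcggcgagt
Arntl: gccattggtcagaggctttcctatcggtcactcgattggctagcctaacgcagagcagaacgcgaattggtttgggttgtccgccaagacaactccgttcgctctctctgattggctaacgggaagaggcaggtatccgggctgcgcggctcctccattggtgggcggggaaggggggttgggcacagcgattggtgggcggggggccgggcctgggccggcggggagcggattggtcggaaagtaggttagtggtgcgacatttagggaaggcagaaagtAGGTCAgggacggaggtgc

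An E-box was present in 4 of the 14 windows (1 each of Ciart and Per1, and both of Tef), against 7.15% of 32851 promoter windows of mouse genes. D-boxes were present in 2 of the 14 (Per1 and Per3), against 3.38% of all windows. The receptor element was present in 4 of the 14 (1 each of Arntl, Clock, Per1 and Nr1d2), against 16.3% of all windows. Genes with several start sites contribute several windows, some of which overlap. In the Ciart window the E-boxes began at positions −116, −58 and −44 relative to the start site. In Per3 the D-boxes began at −205 and −158. The windows of Dbp and Nr1d1 held none of these motifs. A match describes the sequence and says nothing about binding in these mice.

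The libraries held 3125366 to 15557862 counted reads in Trex2 KO and 1208896 to 5853454 in WT. Values below are normalized counts, the authors' counts divided by 1 size factor per library, and 3 reads correspond to 1.04 to 5.21 normalized counts in Trex2 KO and 2.72 to 13.5 in WT. Trex2 itself was at 0.794 to 3.47 normalized counts in Trex2 KO and at 1125 to 2196 in WT, as the labels give (log2 fold change −9.03, SE 0.25, limma adjusted p = 5.504e-11). Basal keratinocyte markers summed to 57364 to 177524 normalized counts in Trex2 KO and 36550 to 90501 in WT, and skeletal muscle markers to 41601 to 89244 and 51981 to 91467, so the tissue held muscle as well as epidermis. Differentiated keratinocyte markers summed to 2514 to 26991 in Trex2 KO and 526 to 12541 in WT, and were highest in Trex2 KO 9, Trex2 KO 12 and WT 4, which stood apart from the rest. Neutrophil markers summed to 16033 to 80256 in Trex2 KO and 45275 to 108366 in WT. Hair follicle markers, of which 6 of 12 were above the minimum for testing, summed to 973 to 1683 in Trex2 KO and 662 to 1427 in WT. Each gene of these lists had reads in at least 1 library. In bulk skin, fewer cells of a type and less RNA per cell cannot be told apart for any gene below.

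None of the 10 clock genes differed between the genotypes at an adjusted p of 0.05 in limma (log2 of the normalized count + 1), edgeR or DESeq2. Over all 13215 genes tested, limma called 0.0151%, edgeR 0.0303% and DESeq2 4.36%. Without WT 4, limma called 5.6% of all genes and again none of the 10. At an unadjusted p under 0.05 limma passed 1 of the 10, Clock, against 24.4% of all genes tested. By the same cut edgeR passed 1 of the 10 and 3029 of all 13215 genes, and DESeq2 passed 2 of the 10 and 3136 of all. The groups overlapped in all 10, against 2.32% of tested genes whose groups did not overlap. The log2 fold change was positive in 7 and negative in 3, their median being 0.08, beside 6736 positive, 6479 negative and a median of 0.01 over all genes. Without Trex2 KO 9 and 12, the log2 fold changes were 0.31 for Arntl, 0.51 for Clock, −0.55 for Nr1d1 and −0.64 for Dbp, and without WT 4 they were 0.30, 0.72, −0.38 and −0.31. Intervals below are those of limma, and they leave room for differences that the test could not resolve at 6 against 5 libraries.

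**Figure D1:**
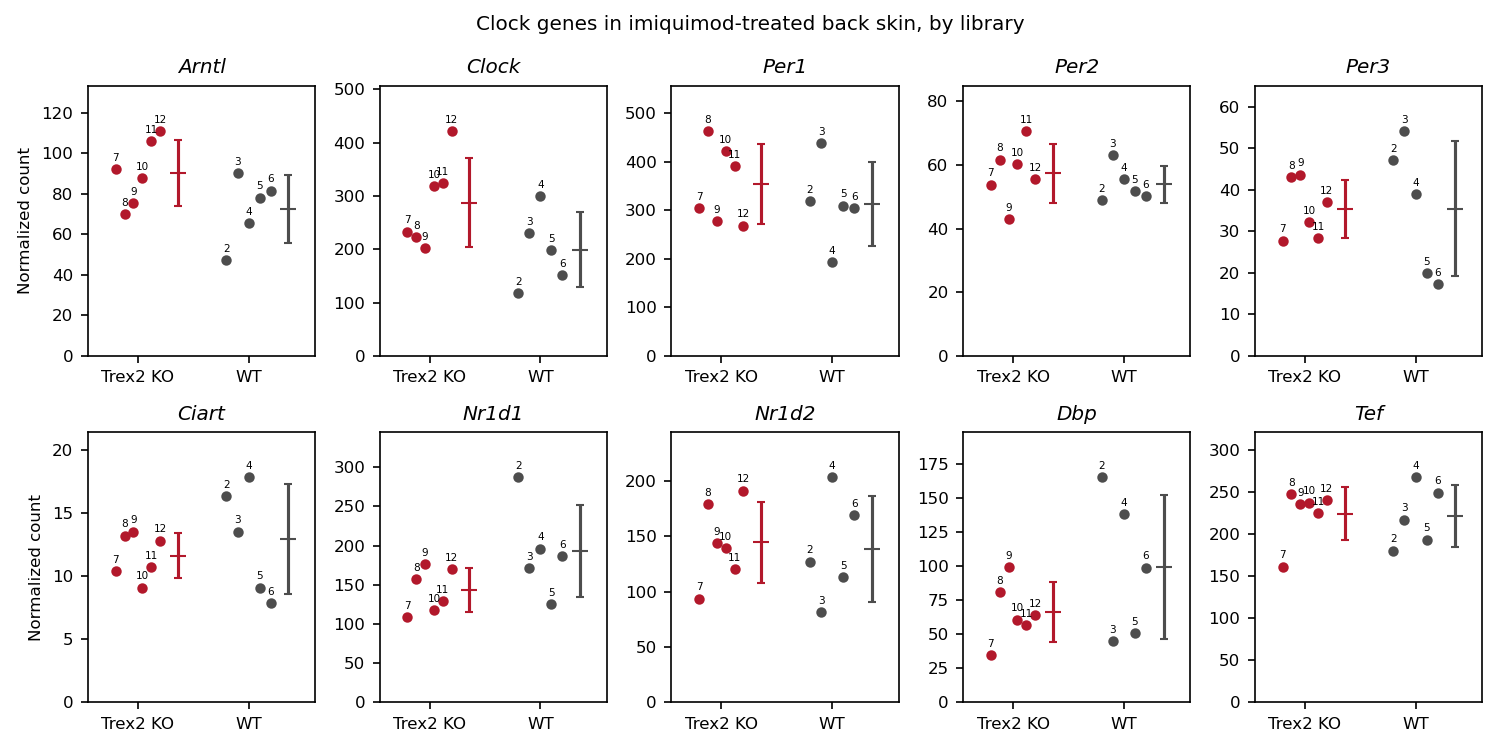
Normalized counts of the 10 clock genes in each library, 1 panel per gene, with the 6 Trex2 KO libraries left of the 5 WT libraries and replicate numbers beside the points. Horizontal lines are group means with bars of 1 SD; the groups overlap in every panel, and WT 2 is highest for Dbp at 165 and for Nr1d1 at 287.

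Both activators of the loop had higher means in Trex2 KO skin, without passing the test. Arntl encodes the partner of CLOCK that no other gene fully replaces. It had 92.0, 70.0, 75.4, 87.6, 106 and 111 normalized counts in Trex2 KO 7 to 12, against 47.2, 90.3, 65.6, 78.1 and 81.6 in WT 2 to 6. WT 2 was lowest, and 3 Trex2 KO libraries lay above every WT library. The means were 90.2 ± 16.1 in Trex2 KO and 72.5 ± 16.7 in WT (SD, n = 6 and 5). The log2 fold change, 0.33 (SE 0.19), had a 95% interval of −0.08 to 0.73 (limma adjusted p = 0.297, exact permutation p = 0.11472, two-sided). Without WT 2 the log2 fold change of Arntl was 0.18 (limma adjusted p = 0.5422). Over all alternatives the adjusted p ran from 0.2182 to 0.9944. It was highest with the hair follicle covariate, where every clock gene had that same adjusted p. The log2 fold change of Arntl there was 0.415, beside 0.33 without the covariate.

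Clock encodes the acetyltransferase partner of ARNTL. It had 233, 223, 202, 319, 324 and 422 normalized counts in Trex2 KO 7 to 12, against 118, 230, 300, 198 and 151 in WT 2 to 6. Here too 3 Trex2 KO libraries (10, 11 and 12, the deepest) lay above every WT library, and WT 2 was lowest. Means were 287 ± 83.3 in Trex2 KO and 199 ± 70.9 in WT (SD, n = 6 and 5), with a log2 fold change of 0.55 (SE 0.24, 95% interval 0.03 to 1.07, limma unadjusted p = 0.04101, adjusted p = 0.1886). The exact permutation test gave p = 0.08009 (two-sided). Over all alternatives its adjusted p was lowest without WT 4, at 0.07539 (range 0.07539 to 0.9944). The fold change was 0.31 with log10 of the read total as a covariate, 0.30 with the hair follicle score and 0.28 within the libraries of 3000000 to 8000000 reads. Across the 11 libraries Clock also went with lower neutrophil scores (r = −0.62, permutation p = 0.0409, adjusted p = 0.329 over 20 relations of clock genes with library measures; rho = −0.64, p = 0.0403). Without Trex2 KO 12 and WT 2, the libraries farthest from the Clock median, r was −0.32 (permutation p = 0.402), and centred on the group means it was −0.40 (permutation p = 0.216). The part of these measures in the Clock value was not tested.

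The Per genes encode the repressors whose build-up ends each cycle, and PER1 and PER2 are the main ones. Per1 had 304, 463, 278, 422, 390 and 268 normalized counts in Trex2 KO 7 to 12, against 318, 438, 193, 309 and 304 in WT 2 to 6. Highest were Trex2 KO 8 and WT 3, and lowest was WT 4. On the log2 scale the groups differed by 0.19 (SE 0.20, 95% interval −0.24 to 0.63, limma adjusted p = 0.569). Without WT 4 the difference for Per1 was 0.03, and without WT 3 it was 0.33.

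Per2 was the steadiest of the 10 genes. It had 53.8, 61.7, 42.9, 60.3, 70.7 and 55.5 normalized counts in Trex2 KO 7 to 12, against 49.0, 63.2, 55.6, 51.7 and 50.2 in WT 2 to 6, where the WT values all fell within the range of the Trex2 KO values. Its means were 57.5 ± 9.3 in Trex2 KO and 53.9 ± 5.73 in WT (SD, n = 6 and 5; log2 difference 0.08, SE 0.16, 95% interval −0.27 to 0.43, limma adjusted p = 0.7757).

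Per3, which is dispensable for the rhythm itself in mice but cycles strongly, varied more in WT. It had 27.8, 43.0, 43.7, 32.3, 28.4 and 37.1 normalized counts in Trex2 KO 7 to 12, against 47.2, 54.2, 38.9, 20.0 and 17.3 in WT 2 to 6. WT 2 and WT 3 lay above every Trex2 KO library, and WT 5 and WT 6 below every one. Means were 35.4 ± 7.0 in Trex2 KO and 35.5 ± 16.4 in WT, and the log2 fold change of 0.11 (SE 0.30, limma adjusted p = 0.8419) has the other sign from the difference of the means.

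Ciart, a repressor that binds ARNTL and CLOCK, was the least abundant of the genes in counts. It had 10.4, 13.2, 13.5, 9.07, 10.7 and 12.8 normalized counts in Trex2 KO 7 to 12, against 16.3, 13.5, 17.8, 9.08 and 7.85 in WT 2 to 6. These values rest on 6 to 37 reads in Trex2 KO and 3 to 16 reads in WT, and the 3 reads of WT 3 equal the limit of detection. WT 4 and WT 2 were highest and WT 6 lowest. Its log2 fold change of −0.09 had an SE of 0.28 (limma adjusted p = 0.8588).

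The nuclear receptors NR1D1 and NR1D2 (REV-ERB alpha and beta) repress Arntl. Nr1d1 had 109, 157, 176, 118, 129 and 170 normalized counts in Trex2 KO 7 to 12, against 287, 171, 196, 125 and 187 in WT 2 to 6. WT 2 stood above all other libraries, and 2 Trex2 KO libraries, 7 and 10, lay below every WT library. Means were 143 ± 28.3 in Trex2 KO and 193 ± 58.9 in WT (SD, n = 6 and 5), with a log2 fold change of −0.40 (SE 0.20, 95% interval −0.83 to 0.03, limma adjusted p = 0.2328, exact permutation p = 0.08874, two-sided). Without WT 2 the log2 fold change of Nr1d1 was −0.25 (limma adjusted p = 0.4343). Over all alternatives the adjusted p ran from 0.1735 to 0.9944. It was highest with the hair follicle covariate, where every clock gene had that same adjusted p. The log2 fold change of Nr1d1 there was −0.694, beside −0.40 without the covariate. Its exons share 263 bases with Thra, the thyroid hormone receptor alpha gene on the other strand, and since the strand setting of the counting is not given in the sources used here, reads there cannot be told apart. Thra itself had 146 to 183 normalized counts in Trex2 KO and 156 to 254 in WT (log2 fold change −0.26, SE 0.14, limma adjusted p = 0.242).

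Nr1d2 had 93.7, 179, 144, 139, 120 and 191 normalized counts in Trex2 KO 7 to 12, against 127, 81.2, 203, 113 and 169 in WT 2 to 6. The lowest value came from WT 3, the shallowest library, and the next from Trex2 KO 7. Means were 144 ± 36.2 in Trex2 KO and 139 ± 48.0 in WT (SD, n = 6 and 5; log2 difference 0.09, SE 0.24, limma adjusted p = 0.8403).

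Dbp and Tef encode leucine zipper factors that act at D-boxes downstream of the loop. Dbp varied most of the 10 genes between mice. It had 34.7, 81.1, 99.2, 60.7, 56.8 and 64.2 normalized counts in Trex2 KO 7 to 12, against 165, 45.1, 138, 50.8 and 98.9 in WT 2 to 6. The highest library, WT 2, had 4.76 times the lowest, Trex2 KO 7, and the WT libraries WT 3 and WT 5 lay below 5 of the 6 Trex2 KO libraries. Counting error alone gives 95% intervals (exact Poisson) of 21.2 to 53.6 for Trex2 KO 7 from 20 reads and 133 to 203 for WT 2 from 91 reads, and 21.6 to 83 for WT 3 from 10 reads. Means were 66.1 ± 22.0 in Trex2 KO and 99.6 ± 52.7 in WT (SD, n = 6 and 5), and the log2 fold change was −0.47 (SE 0.35, 95% interval −1.22 to 0.28, limma adjusted p = 0.4084, exact permutation p = 0.2684, two-sided). With single libraries left out it ran from −0.71 without WT 3 to −0.25 without WT 2. As a covariate, the muscle score gave −0.615, the hair follicle score −1.02 and log10 of the read total −0.899, none past the threshold. Without WT 2 and Trex2 KO 7, left out together after the values had been seen, the log2 fold change of Dbp was −0.08. Dbp shares 539 exonic bases with Sphk2, a sphingosine kinase gene on the other strand, which had 209 to 281 normalized counts in Trex2 KO and 202 to 291 in WT.

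Tef had 161, 247, 235, 237, 225 and 240 normalized counts in Trex2 KO 7 to 12, against 180, 217, 267, 193 and 249 in WT 2 to 6. Trex2 KO 7 was lowest of all, and the other Trex2 KO libraries lay within the WT range. The means, 224 ± 31.7 in Trex2 KO and 221 ± 36.8 in WT (SD, n = 6 and 5), gave a log2 fold change of 0.02 (SE 0.15, 95% interval −0.30 to 0.34, limma adjusted p = 0.9423).

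Levels of different genes can be compared only per length. Per kilobase of exon in GENCODE M21, Per1 was highest in Trex2 KO at 62.9 ± 14.5 normalized counts and stood at 55.5 ± 15.4 in WT, while Nr1d1 had 46.6 ± 9.21 in Trex2 KO and 62.8 ± 19.1 in WT (SD, n = 6 and 5 throughout). Tef followed with 28.5 ± 4.02 in Trex2 KO and 28.1 ± 4.67 in WT, Nr1d2 with 26.7 ± 6.7 and 25.7 ± 8.88, Dbp with 22.1 ± 7.36 and 33.3 ± 17.6, and Clock with 20.9 ± 6.07 and 14.5 ± 5.17. Tef, Nr1d2, Dbp and Clock lay within 1 SD of their neighbours in Trex2 KO. Arntl had 12.0 ± 2.14 in Trex2 KO and 9.64 ± 2.22 in WT, and Per2, with 9.82 ± 1.59 and 9.21 ± 0.978, did not differ from it beyond that spread in WT. Ciart, at 5.14 ± 0.796 in Trex2 KO and 5.71 ± 1.93 in WT, and Per3, at 3.68 ± 0.729 and 3.69 ± 1.7, were lowest.

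**Figure D2:**
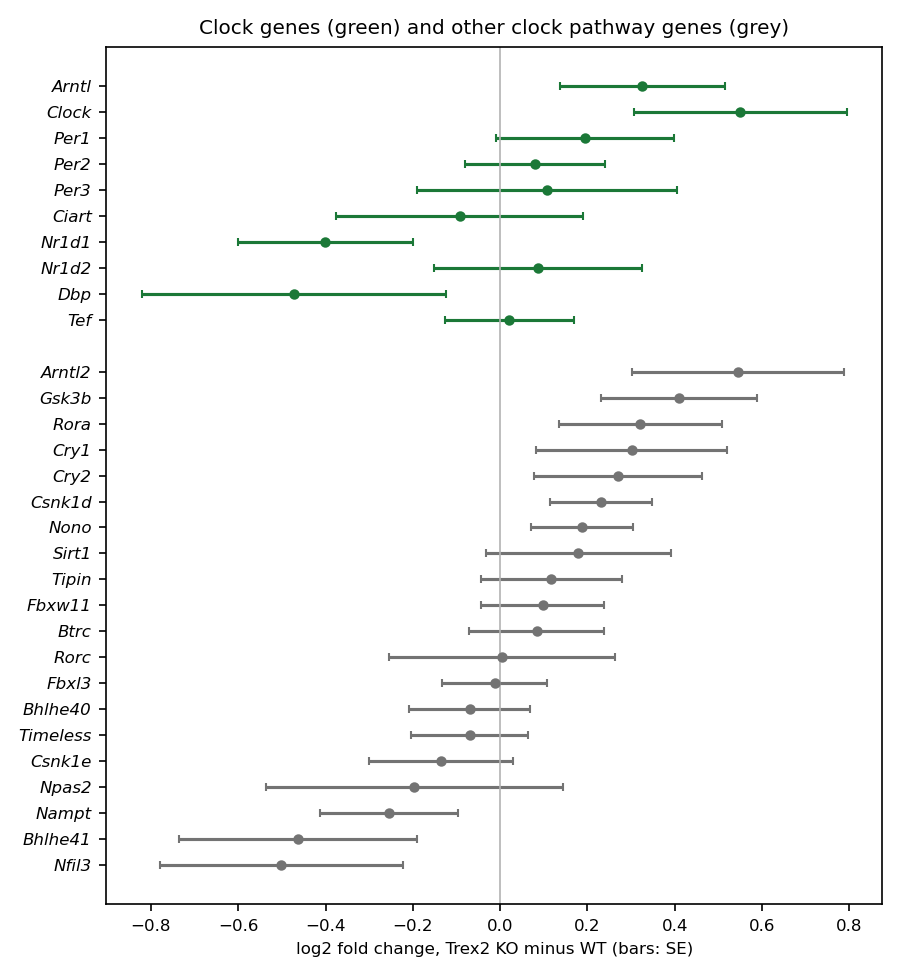
Log2 fold change (Trex2 KO minus WT) of the 10 clock genes in green and of 20 other tested genes of the clock pathway in grey, with bars of 1 SE. The highest clock gene is Clock at 0.55 and the lowest is Dbp at −0.47, and no gene drawn passed the limma threshold.

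Of 23 other genes of the pathway, 20 were tested, and Rorb, Hlf and Fbxl21 were below the minimum. None passed in limma, edgeR or DESeq2, and log2 fold changes were positive in 12 and negative in 8 (median 0.09). Against 24.4% of all genes tested, 2 of the 20 had an unadjusted limma p under 0.05. These were Gsk3b, a kinase acting on several clock proteins, with 426 ± 77.2 normalized counts in Trex2 KO and 325 ± 84.0 in WT (log2 difference 0.41, SE 0.18, limma adjusted p = 0.1827), and Arntl2, a paralogue of Arntl, with 33.9 ± 9.84 and 22.3 ± 3.51 (log2 difference 0.54, SE 0.24, limma adjusted p = 0.1905). Csnk1d, a kinase that phosphorylates PER proteins, had 926 ± 117 in Trex2 KO and 786 ± 62.4 in WT, with 5 of 6 Trex2 KO libraries above every WT library (log2 fold change 0.23, SE 0.12, limma adjusted p = 0.2377). Nfil3, which represses at D-boxes, had 437 ± 178 in Trex2 KO and 597 ± 154 in WT (log2 fold change −0.50, SE 0.28, limma adjusted p = 0.2789). Cry1, the main repressor together with PER proteins and picked with its values already known, had 151, 130, 92.9, 134, 141 and 139 normalized counts in Trex2 KO 7 to 12, against 59.9, 144, 90.1, 139 and 119 in WT 2 to 6 (log2 difference 0.30, SE 0.22, limma adjusted p = 0.402). WT 2, highest for Dbp, was lowest for Cry1, and Trex2 KO 7, lowest for Dbp, was highest for Cry1.

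A further list held 10 genes that follow the clock in many mouse tissues, and it too had no call in limma, edgeR or DESeq2. Of its 10 tested genes 2 had a positive and 8 a negative log2 fold change (median −0.20). Against 24.4% of all genes tested, 2 of the 10 had an unadjusted limma p under 0.05, both lower in Trex2 KO. Tspan4, a tetraspanin, had 583 ± 204 normalized counts in Trex2 KO and 952 ± 236 in WT (log2 fold change −0.76, SE 0.26, limma adjusted p = 0.1262). Dtx4, an E3 ubiquitin ligase, had 71.9 ± 21.2 in Trex2 KO and 112 ± 34 in WT (log2 fold change −0.64, SE 0.24, limma adjusted p = 0.1473). Values of Pim3, a kinase, were 344 ± 50.7 in Trex2 KO and 284 ± 50.5 in WT (log2 fold change 0.28, SE 0.15, limma adjusted p = 0.2519), and those of Cdkn1a, the cell cycle inhibitor p21, were 2400 ± 597 and 2931 ± 684 (log2 difference −0.29, SE 0.19, limma adjusted p = 0.3602).

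Several clock genes differed widely between mice of the same genotype. The SD of the log2 value within a group was 0.67 for Dbp, higher than for 91.2% of tested genes, 0.52 for Per3 (81.8%) and 0.46 for Clock (75.0%). It was 0.23 for Tef (24.4%) and 0.20 for Per2 (16.1%). The SD that read counts alone would give was 0.21 for Dbp, 0.28 for Per3 and 0.12 for Clock. For Per2 (0.22) and Ciart (0.48, against an observed 0.36) the counting SD was as large as the spread, so differences between mice were not detectable at this depth.

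**Figure D3:**
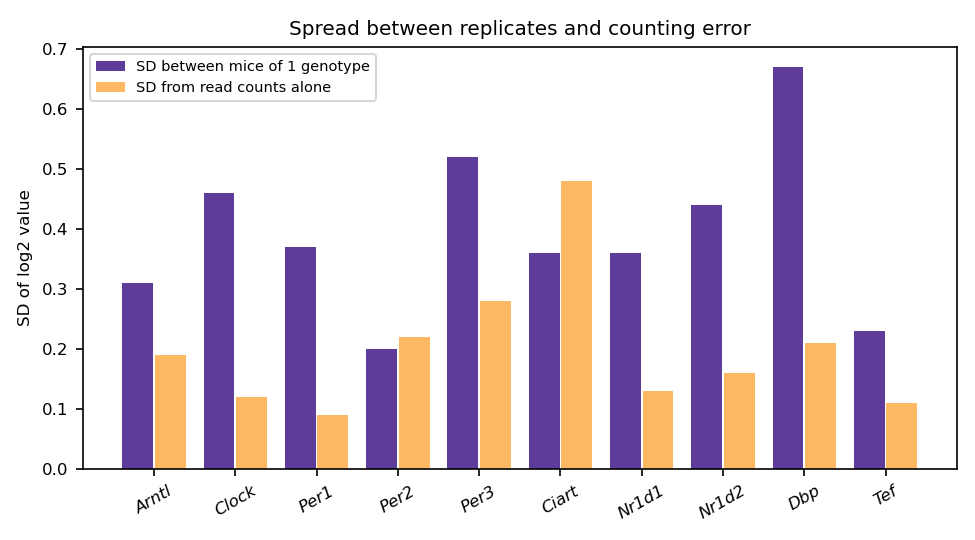
SD of the log2 value between mice of 1 genotype (purple, pooled over Trex2 KO and WT) and the SD that read counts alone give (orange) for each clock gene. Dbp has the widest spread, 0.67 against a counting SD of 0.21, whereas for Per2 and Ciart the counting SD exceeds the observed spread.

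A ratio of an E-box target to Arntl within a library depends on the library's size factor only through the 1 added to each normalized count. It places each mouse between these opposed genes without a test. The log2 ratio of Dbp to Arntl was −1.38, 0.21, 0.39, −0.52, −0.88 and −0.78 in Trex2 KO 7 to 12, against 1.79, −0.98, 1.06, −0.61 and 0.27 in WT 2 to 6. It spanned 3.17 log2 units over the mice, from Trex2 KO 7 at the Arntl end to WT 2 and WT 4 at the Dbp end. WT 3 and WT 5 lay, like Trex2 KO 11 and 12, between Trex2 KO 7 and Trex2 KO 10. The means were −0.49 ± 0.68 in Trex2 KO and 0.31 ± 1.15 in WT (SD, n = 6 and 5), a difference of −0.80 that was smaller than the WT SD, and it was −0.43 without WT 2. The log2 ratio of Nr1d1 to Arntl was 0.25, 1.16, 1.21, 0.43, 0.29 and 0.62 in Trex2 KO 7 to 12, against 2.58, 0.92, 1.56, 0.68 and 1.18 in WT 2 to 6, and again Trex2 KO 7 was lowest and WT 2 and WT 4 highest. That of Cry1 to Arntl spanned only 0.59, with means of 0.54 ± 0.23 in Trex2 KO and 0.57 ± 0.19 in WT. That of Dbp to Cry1 spanned 3.54, from −2.09 in Trex2 KO 7 to 1.45 in WT 2.

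**Figure D4:**
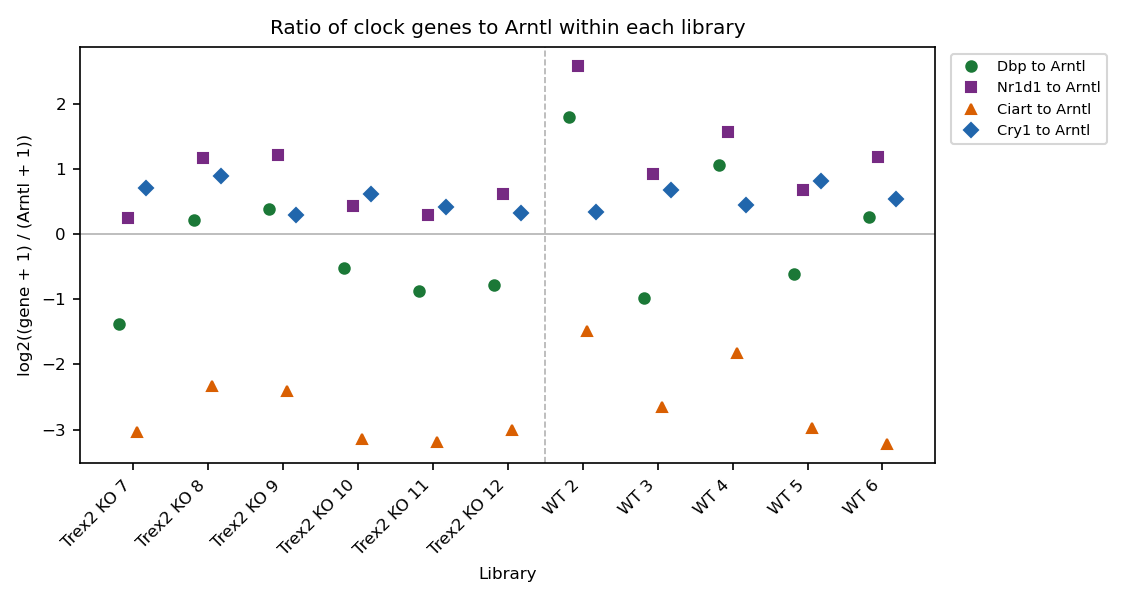
Log2 ratio of Dbp, Nr1d1, Ciart and Cry1 to Arntl in each library, with the 6 Trex2 KO libraries left of the dashed line and the 5 WT libraries right of it. Dbp to Arntl runs from −1.38 in Trex2 KO 7 to 1.79 in WT 2, while Cry1 to Arntl spans 0.59 over all libraries.

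Several pairs of clock genes were related from mouse to mouse. Among the 45 pairs of the 10 genes, 8 had a permutation p under 0.05 over the 11 libraries and 2 passed after adjustment. The share of all gene pairs that would pass the same cut was not computed. The count therefore does not set the clock genes apart from other genes. Nr1d1 and Dbp, both E-box targets, gave r = 0.84 (permutation p = 0.00087, adjusted p = 0.0382; rho = 0.82, p = 0.00307, adjusted p = 0.046). Centred on the group means r was 0.82, and among the 6 Trex2 KO libraries alone it was 0.84 (exact permutation p = 0.0194, not adjusted). Without Trex2 KO 7 and WT 2, the libraries farthest from the Nr1d1 median, r was 0.66 (permutation p = 0.0579). In Trex2 KO alone, Per3 with Dbp (r = 0.89, exact permutation p = 0.00139) and Nr1d2 with Tef (r = 0.86, p = 0.00556) had smaller unadjusted p. Over the 11 libraries Per3 with Dbp gave r = 0.24 (permutation p = 0.471). Per3 and Ciart, whose windows above hold D-boxes and E-boxes, gave r = 0.83 (permutation p = 0.0017, adjusted p = 0.0382; rho = 0.84, p = 0.00182, adjusted p = 0.0409). Without WT 5 and WT 6 r was 0.67 (p = 0.0486), centred on the group means 0.86, and in Trex2 KO alone 0.80 (exact permutation p = 0.0681).

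Arntl and Dbp ran in opposite directions, with r = −0.76 (permutation p = 0.00594, adjusted p = 0.0891; rho = −0.72, p = 0.0165, adjusted p = 0.164), which did not pass the adjustment over 45 pairs. Without Trex2 KO 12 and WT 2 it was −0.72 (p = 0.0311), centred on the group means −0.72 (p = 0.014), and in Trex2 KO alone −0.52 (exact permutation p = 0.294). Arntl and Clock gave r = 0.73 (permutation p = 0.0112, adjusted p = 0.101; rho = 0.67, p = 0.027). For this pair r was 0.25 (permutation p = 0.517) without Trex2 KO 12 and WT 2, 0.62 (permutation p = 0.0411) centred on the group means, and 0.84 in Trex2 KO alone (exact permutation p = 0.0528; rho = 0.89, p = 0.0333). Nr1d2 and Tef gave r = 0.73 (permutation p = 0.0109, adjusted p = 0.101) and rho = 0.86 (p = 0.00119, adjusted p = 0.0409), with r = 0.79 without Trex2 KO 7 and WT 3.

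Among the pairs of clock genes computed over the 11 libraries, the strongest relation was with a gene outside the 10. In a family of 40 pairs of the other clock genes with Arntl or Dbp, chosen after the data were seen, Dbp and Cry1 gave r = −0.90 (permutation p = 1e-05, the smallest that 100000 resamples can give; adjusted p = 0.0004) and rho = −0.98 (p = 1e-05, adjusted p = 0.0004). Without WT 2 and WT 4 r was −0.82 (p = 0.00121), centred on the group means −0.88 (p = 0.00017), and in Trex2 KO alone −0.82 (exact permutation p = 0.0611; rho = −0.94, p = 0.0167). Arntl and Cry1 gave r = 0.86 (permutation p = 0.0011, adjusted p = 0.022; rho = 0.80, p = 0.00453, adjusted p = 0.0906), 0.70 (p = 0.0352) without Trex2 KO 12 and WT 2, 0.84 centred on the group means, and 0.57 (exact permutation p = 0.256) in Trex2 KO alone. In Trex2 KO alone, Dbp and Csnk1e of the same family gave a stronger r of 0.96 (exact permutation p = 0.00139, not adjusted). Over the 11 libraries that pair gave r = 0.35 (permutation p = 0.296). No coefficient was computed within the 5 WT libraries, fewer than the 6 required here, but their order by Dbp was the exact reverse of their order by Cry1.

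**Figure D5:**
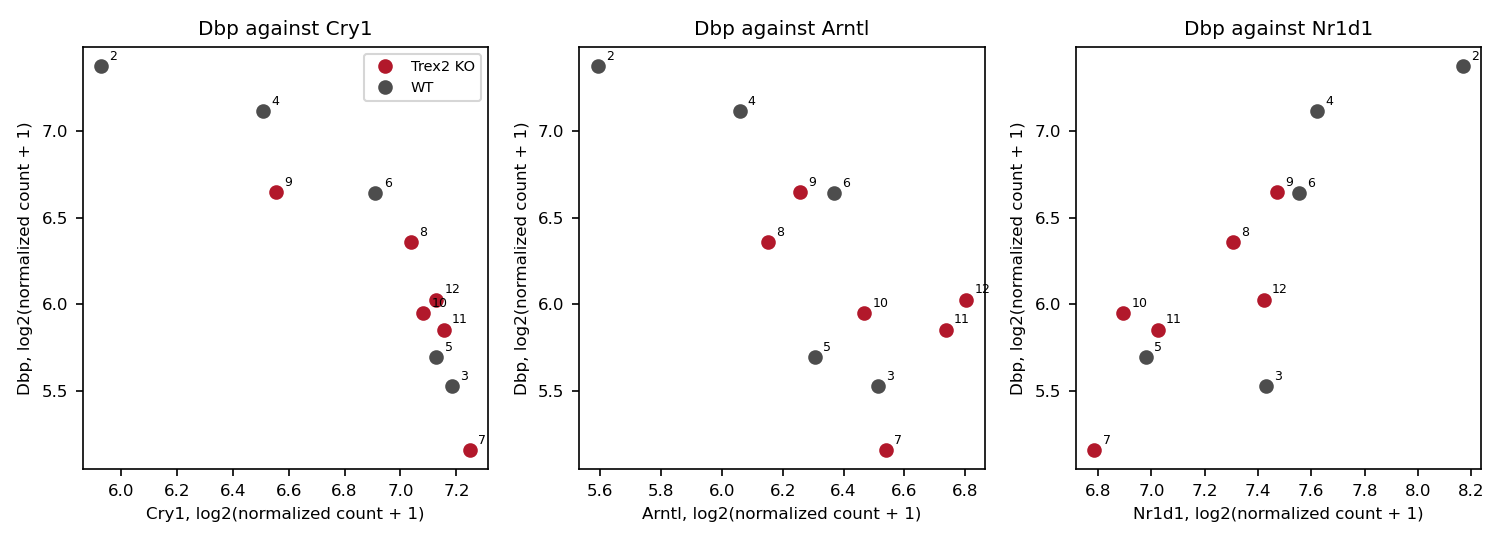
Dbp against Cry1, Arntl and Nr1d1 as log2(normalized count + 1), 1 point per library with its replicate number, Trex2 KO in red and WT in grey. Libraries of both genotypes lie along each relation, from WT 2 and WT 4 at the high Dbp end to Trex2 KO 7 at the low end, with r = −0.90, −0.76 and 0.84 over the 11 libraries.

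Markers of the tissue's make-up and depth were set beside Arntl, Clock, Nr1d1 and Dbp in the 20 relations counted above, and none passed after adjustment. Dbp had r = 0.04 with log10 of the read total, −0.14 with the muscle score and 0.29 with the score of differentiated keratinocytes. Centred on the group means, that last relation was 0.67 (permutation p = 0.0247, not adjusted) for Dbp and 0.61 (p = 0.0479) for Nr1d1. Arntl had r = 0.31 with log10 of the read total and −0.29 with the muscle score. The part of these measures in the relations between clock genes was not tested.

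Among all 13215 genes tested, Cry1 ranked 2 from the lowest r with Dbp over the 11 libraries, and Nr1d1 ranked 6 from the highest. Arntl ranked 45 from the lowest r with Dbp. By r with Arntl, Cry1 ranked 19 from the highest, Dbp 100 from the lowest and Nr1d1 352 from the lowest. The genes most like Dbp were Hnmt, which inactivates histamine, with r = 0.88, Rbm12b2 with 0.87, Rest, a repressor of neuronal genes, with 0.85, H2-DMb1, a chaperone subunit of MHC class II, with 0.85, and Ergic2 with 0.84. Those most like Arntl were Wdr44 with r = 0.95, Gpr161, a receptor of the primary cilium, with 0.92, Hmcn1, an extracellular matrix protein, with 0.91, Esyt2 with 0.90 and Mtbp with 0.90. These are the extremes of many comparisons over 11 libraries that share their size factors, and they are given as a description.

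The genes lie apart in the genome (GENCODE M21, GRCm38): Arntl at chr7:113207465-113314126 and Dbp at chr7:45705088-45710203 on the plus strand of chromosome 7, Per1 at chr11:69095217-69109960 on the plus strand and Nr1d1 at chr11:98767932-98775333 on the minus strand of chromosome 11. Clock is at chr5:76209868-76304792, Per2 at chr1:91415982-91459324, Per3 at chr4:151003652-151044665, Ciart at chr3:95878503-95882251 and Nr1d2 at chr14:18204054-18239127, all on the minus strand, and Tef is at chr15:81802421-81826863 on the plus strand. Besides Thra and Sphk2, exons on the other strand overlap Arntl by 33 bases (Gm45355) and Tef by 193 bases (Gm17597).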

How the data were processed

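mRNA of pulverized back skin was sequenced for 11 mice, per the labels' protocols. The deposited table holds a normalized signal, a read count that the authors divided by 1 size factor per library. The submitters' processing notes name GRCm38, featureCounts 1.4.6, TopHat2 2.0.8 and DESeq2 1.8.1. Neither their order nor the annotation or strand setting is given in the sources used here. Every value was a whole multiple of 1 read in its library (100% within 0.01), so whole reads were recovered. All deposited columns were used (0 left aside).

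Genes averaging at least 10 (13215 of 38406) were tested with limma 3.58.1 in R 4.3.3 on log2(normalized count + 1), with a mean-variance trend, two-sided, with Benjamini-Hochberg adjustment over all tested genes and a threshold of 0.05. This scale understates changes of low genes. The recovered reads also went through DESeq2 1.42.0 and edgeR 4.0.16. Single values were compared by exact permutation, and correlations by 100000 resamples, adjusted within each family. Other genes of each list were named by smallest unadjusted p, up to 4 per list, along with genes overlapping a clock gene and the 5 most like Dbp and Arntl. Cry1 was chosen after its values were seen.

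The clock genes, the lists and the tests were chosen with earlier results of these data known. Alternatives were other pseudocounts, filters, scalings, variances, covariates for muscle, hair follicle and depth, and left-out libraries. The fits were checked on simulated counts. Every pair of libraries of 1 genotype differed beyond sampling noise (chi-square over its degrees of freedom at least 4.477), and each library was taken as 1 replicate. Intervals from reads cover counting error only, since no molecular identifiers are named.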

Additional observations from a re-analysis of the deposited data

Results flagged for a closer look

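In 24 groups of libraries, 2 held a library that stood apart from its group by Dixon's criterion, and chance gives this in about 1 in 20 groups. Tef had 161 normalized counts in Trex2 KO 7, a gap to the next library of 0.734 of the range of the 6 Trex2 KO libraries. Cry1 had 92.9 normalized counts in Trex2 KO 9, with a gap of 0.644 of that range. Trex2 KO 7 was also the lowest library for Dbp and Nr1d1, and Trex2 KO 9 the highest Trex2 KO library for Dbp.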

How the results depend on the processing

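No paired analysis was possible because the groups share no replicate number (7 to 12 in Trex2 KO, 2 to 6 in WT). The counts of clock genes and of other clock genes past the threshold were 0 under all 27 alternatives. At an unadjusted p under 0.05 there were 0 to 3 of the 10 clock genes. The 3 came with the hair follicle covariate, where 512 of all 13215 genes tested had such a p. Arntl, Clock, Per1, Per2, Nr1d1 and Dbp kept their direction in all alternatives, with log2 fold changes of 0.17 to 0.42, 0.28 to 0.72, 0.03 to 0.62, 0.02 to 0.22, −0.69 to −0.17 and −1.02 to −0.08. The other genes, all near 0, reversed in some, and the cause was not tested. Per3 was −0.217 with the hair follicle covariate, and −0.109 to 0.29 with single libraries left out, negative without WT 5 or WT 6. Ciart was 0.0251 in libraries of 3000000 to 8000000 reads, 0.0282 without WT 2 and Trex2 KO 7 (chosen after seeing the data), and −0.241 to 0.0309 with single libraries left out, positive without WT 2 or WT 4. Nr1d2 was −0.0955 with the muscle, −0.324 with the hair follicle and −0.39 with the depth covariate, −0.0313 without Trex2 KO 9 and 12, and −0.155 in libraries of 3000000 to 8000000 reads. With single libraries left out it was −0.0871 to 0.241, negative without WT 3 or Trex2 KO 12. Tef was −0.00319 with upper quartile and −0.017 with quantile scaling, −0.0802, −0.117 and −0.146 with the muscle, hair follicle and depth covariates, −0.0274 without Trex2 KO 9 and 12, and −0.056 in libraries of 3000000 to 8000000 reads. Its range with single libraries left out was −0.0495 to 0.113. The correlation of Arntl and Dbp ranged from −0.82 to −0.52, and that of Dbp and Cry1, whose alternatives were all chosen after seeing the data, from −0.92 to −0.82. In Trex2 KO alone the correlation of Dbp and Cry1 was −0.82 (exact permutation p = 0.0611, adjusted p = 0.611). There, 6 libraries allow a single pair an adjusted p of 0.0556 at best over 40 pairs. The unadjusted p of Dbp and Cry1 was itself above 0.05. Over all genes limma called 740 without WT 4 and 2 or 3 in the other fits, against 4 for edgeR and 576 for DESeq2. Read counts limit Ciart most, at 3 to 37 reads a library.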

Other observations

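Early response genes, which cells switch on within minutes of a stimulus, were measured in the same libraries. Of 8 tested, log2 fold changes were positive in 5 and negative in 3 (median 0.14), and limma and edgeR called none. Against 24.4% of all genes tested, 1 of the 8 had an unadjusted limma p under 0.05. That gene was Fosb, an AP-1 subunit, with 95.4, 248, 36.5, 37.5, 72.3 and 35.4 normalized counts in Trex2 KO 7 to 12, against 23.6, 31.6, 20.0, 21.8 and 12.6 in WT 2 to 6. All 6 Trex2 KO libraries lay above every WT library (log2 fold change 1.61, SE 0.45, limma adjusted p = 0.1085), and DESeq2 called it higher (log2 fold change 2.03, adjusted p = 0.01442). Over all 13215 genes tested, the groups did not overlap in 2.32%, and DESeq2 called 4.36%. Egr1, a zinc finger factor, had 504 ± 265 normalized counts in Trex2 KO and 332 ± 78.5 in WT (SD, n = 6 and 5; limma adjusted p = 0.303). Fos, a partner of Jun proteins, had 1049 ± 608 in Trex2 KO and 629 ± 89.1 in WT (limma adjusted p = 0.3661), highest in Trex2 KO 8 and 7.

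Targets of the glucocorticoid receptor, whose hormone follows the time of day, had 5 positive and 7 negative log2 fold changes among 12 tested (median −0.20) and no call in limma, edgeR or DESeq2. Mt2, a metallothionein that buffers metal ions, was the 1 of the 12 with an unadjusted limma p under 0.05, against 24.4% of all genes tested. It had 10226 ± 3411 normalized counts in Trex2 KO and 15022 ± 3553 in WT (SD, n = 6 and 5; log2 difference −0.59, SE 0.25, limma adjusted p = 0.1818). Mt1, its neighbour and paralogue, had 9176 ± 3437 in Trex2 KO and 13032 ± 3258 in WT (limma adjusted p = 0.2408). Tsc22d3 stands in this list and in that of genes that follow the clock. Per1 is itself a glucocorticoid target, and its values are given above.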
